A study of Mus musculus with 12 samples.

Results

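The genes described here are 9 genes of liver glucose production and insulin response, chosen by their names in the deposited table: Pck1, G6pc, Fbp1, Pcx, Pklr, Irs1, Irs2, Igfbp1 and Foxo1. All 9 were present among the 11791 genes of that table. They were measured by RNA sequencing of whole mouse liver in 3 groups of 4 pools, each pool mixing RNA from 2 animals. All groups were C57BL/6 males aged 10 weeks that had eaten, for 3 weeks, food lacking methionine and choline (the MCD diet), which produces steatohepatitis, and all carried Lyzs cre, a Cre recombinase under the lysozyme 2 locus that acts in myeloid cells and not in hepatocytes. The control group had Lyzs cre alone and C57 mitochondria by label. The KO group had Lyzs cre with p38g/d deleted, the stress kinases p38γ and p38δ, and its mitochondria label was C57 in pools 1 and 2 and NZB in pools 3 and 4. The anti-Ly6G group had Lyzs cre, received an antibody against the neutrophil protein Ly6G (GR1 in the sample titles) and carried the NZB label in all 4 pools. The labels name 12 males per genotype, more than 4 pools of 2 hold. No label states that pools held separate animals, so p-values measure the spread between these pools.

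Gluconeogenesis makes glucose from lactate, amino acids and glycerol during fasting, mainly in hepatocytes around the portal vein. Its main enzymes are pyruvate carboxylase (Pcx), cytosolic phosphoenolpyruvate carboxykinase (Pck1), fructose-1,6-bisphosphatase (Fbp1) and the catalytic subunit of glucose-6-phosphatase (G6pc), while liver pyruvate kinase (Pklr) runs the last step of glycolysis. Insulin acts through the docking proteins encoded by Irs1 and Irs2 and keeps the transcription factor FOXO1 out of the nucleus, which lowers transcription of G6pc, Pck1, Irs2 and Igfbp1, the last encoding a secreted binding protein of insulin-like growth factors.

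Promoter windows of 4 genes are shown. Of these, 3 (G6pc, Fbp1 and Irs2) were each called lower in anti-Ly6G pools than in control. The fourth, Igfbp1, is a textbook insulin-repressed gene that did not pass the test there. Each window runs from 250 bases before to 50 bases after the RefSeq start on GRCm38.p6, written 5′ to 3′ on the gene's strand. G6pc lies at chr11:101367466-101367765 (plus strand), Fbp1 at chr13:62888233-62888532 (minus), Irs2 at chr8:11008880-11009179 (minus) and Igfbp1 at chr11:7197537-7197836 (plus). Capitals mark matches to the motifs searched on both strands: a forkhead site GTAAACA, the core of the insulin response element CAAAACA, the cAMP half-site TGACG, the E-box CACGTG and the TATA box TATAAA.
G6pc: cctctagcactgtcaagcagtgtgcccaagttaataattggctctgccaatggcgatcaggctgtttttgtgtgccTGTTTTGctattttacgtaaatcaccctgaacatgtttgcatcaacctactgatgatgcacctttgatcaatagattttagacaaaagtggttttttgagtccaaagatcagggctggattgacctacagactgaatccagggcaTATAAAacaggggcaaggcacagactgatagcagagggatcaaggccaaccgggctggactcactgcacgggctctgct
Fbp1: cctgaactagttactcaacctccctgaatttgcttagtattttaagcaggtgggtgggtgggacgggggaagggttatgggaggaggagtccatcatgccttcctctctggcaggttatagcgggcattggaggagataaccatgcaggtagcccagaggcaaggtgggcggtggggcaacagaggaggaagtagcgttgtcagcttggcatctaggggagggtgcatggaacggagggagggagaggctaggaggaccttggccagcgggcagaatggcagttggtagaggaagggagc
Irs2: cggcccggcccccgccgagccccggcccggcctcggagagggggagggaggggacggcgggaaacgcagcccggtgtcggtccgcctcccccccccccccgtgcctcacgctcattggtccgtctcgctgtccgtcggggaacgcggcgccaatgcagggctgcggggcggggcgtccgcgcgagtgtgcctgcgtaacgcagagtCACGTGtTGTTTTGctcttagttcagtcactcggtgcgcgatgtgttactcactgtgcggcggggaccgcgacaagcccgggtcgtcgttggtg
Igfbp1: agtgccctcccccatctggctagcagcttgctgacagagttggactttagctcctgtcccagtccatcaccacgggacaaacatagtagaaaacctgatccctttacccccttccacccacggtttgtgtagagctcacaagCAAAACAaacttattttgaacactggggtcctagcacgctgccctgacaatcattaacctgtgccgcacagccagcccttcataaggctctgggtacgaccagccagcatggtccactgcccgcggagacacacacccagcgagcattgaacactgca
All 9 genes matched the RefSeq promoter table, with 11 windows among them. The insulin response core occurred in windows of 4 of the 9 genes, against 6.28% of all 32851 windows. It began 174 bases before the start in G6pc, 108 in Igfbp1, 37 in Irs2, and 111 and 32 in Irs1, and was on the reverse strand (TGTTTTG) except in Igfbp1. The other motifs were found in 2 genes for the cAMP half-site (Pck1 and Irs1, 20.8% of all windows), 3 for the E-box (Irs1, Irs2 and Pcx, 7.15%), 2 for the TATA box (G6pc and Pklr, 13.6%) and 0 for the forkhead site (3.65%). In Irs1 the E-box overlaps both the cAMP half-site and the first insulin response core. A match is a run of letters and not a measured site. The counts are of genes, with 11 windows among them, whereas the shares are of single windows. The 9 genes were chosen partly for their insulin response, so these counts are a description and not a test.

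Levels are the deposited signal, reads scaled so that a library sums to about 1 M (0.922 to 1.06 M) and called RPM here. The libraries held 13.1 to 22.3 M recovered reads, and no gene of the 9 had fewer than 119 reads in any pool. All 9 hepatocyte markers in the table, Alb among them, were detected, whereas none of the adipocyte, kidney tubule and pancreas markers is in the table. In limma's test 0 of the 9 passed in any comparison. Of all genes, 1.12% passed in KO against control, 30.4% in anti-Ly6G against control and 26.8% in KO against anti-Ly6G. At an unadjusted p under 0.05 limma gave 0, 1 and 4 of the 9 in that order, against 18.9%, 42.3% and 39.6% of all genes. Per kilobase of the longest protein-coding transcript in control, the mean level was 1220 ± 269 (SD, n = 4) for Pck1, 707 ± 51.8 for Fbp1, 179 ± 9.61 for Pcx, 175 ± 78.7 for Igfbp1, 172 ± 66.8 for G6pc, 24.8 ± 4.48 for Pklr, 4.37 ± 0.560 for Irs2, 3.26 ± 0.641 for Foxo1 and 1.39 ± 0.169 RPM per kilobase for Irs1. Pools of Pcx, Igfbp1 and G6pc overlapped in that order, as did those of Irs2 and Foxo1, and the other neighbours did not. In KO the order was Pck1 (1294), Fbp1 (545), Igfbp1 (305), Pcx (165), G6pc (160), Pklr (18.3), Irs2 (4.06), Foxo1 (2.79) and Irs1 (1.54 RPM per kilobase), and in anti-Ly6G G6pc (89.0) stood below Igfbp1 (173) and Pcx (152) without overlap. Among 11791 genes, Igfbp1 and G6pc had some of the widest spreads between control pools, at the 98.8 and 97.6 percentiles of the SD of log2 levels. Pcx in KO was at the 0.3 percentile.

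**Figure D1:**
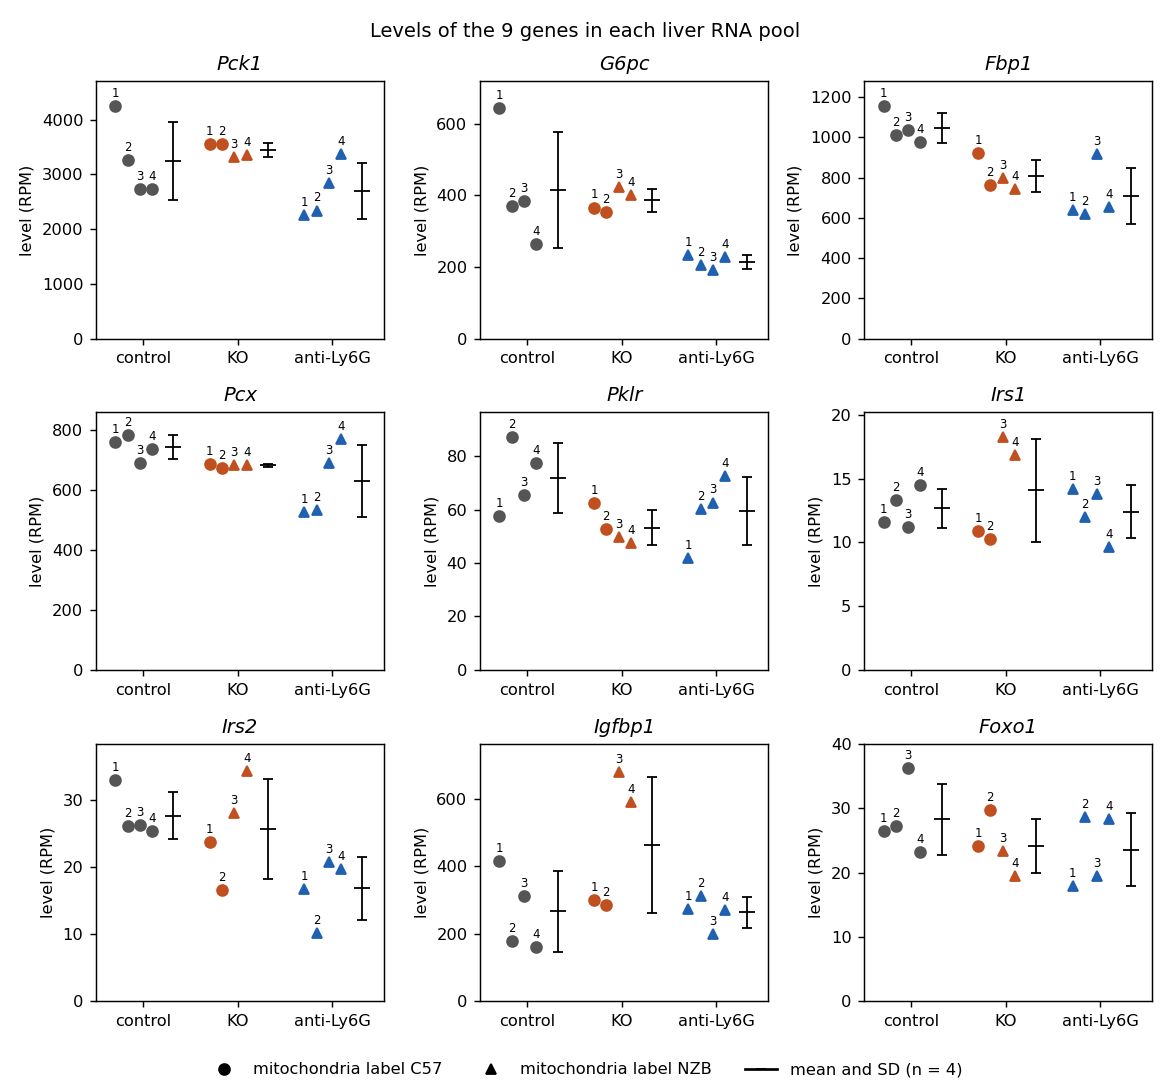
Level of each gene (RPM, linear axis from 0) in the 12 pools, numbered within their group, with circles for the C57 and triangles for the NZB mitochondria label and bars for mean and SD. The 4 anti-Ly6G pools of G6pc lie below all control pools, and KO pools 3 and 4 of Igfbp1 stand above every other pool.

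G6pc, Fbp1 and Irs2 fell in anti-Ly6G pools against control, and the other 6 genes did not pass the test. In limma-trend fits over all genes, 3 of 9 were called at an adjusted p under 0.05, all lower, against 30.4% of all genes called and 15.3% called lower. The pools of 3 of the 9 did not overlap, against 27.3% of all genes. The median log2 fold change was -0.27 over the 9 genes and 0.00 over all genes.

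G6pc, which releases free glucose in the final step, stood at 644, 370, 384 and 265 RPM in control pools 1 to 4 and at 233, 207, 192 and 227 in anti-Ly6G pools. All 4 treated pools lay below the lowest control pool, control 4, and control 1 was far above the other controls. The mean fell from 415 ± 161 to 215 ± 18.9 RPM (SD, n = 4), 51.7% of control, a log2 fold change of -0.88 ± 0.19 (SE, limma adjusted p = 0.00433). It ranged from -1.07 to -0.64 with 1 library left out and kept its call in each such fit. With the mitochondria label as a covariate it was -1.08 and no longer passed (limma adjusted p = 0.0648). That fit takes the effect of the label from the KO pools alone.

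Fbp1, which removes a phosphate from fructose-1,6-bisphosphate, was at 1155, 1012, 1038 and 978 RPM in control and at 641, 621, 917 and 651 in anti-Ly6G pools. The groups did not overlap, although anti-Ly6G 3 came close to the lowest control. The mean fell from 1046 ± 76.6 to 707 ± 140 RPM, a log2 fold change of -0.58 ± 0.12 (SE, limma adjusted p = 0.00305). The call held with each library left out and was lost with the covariate (-0.46, limma adjusted p = 0.178).

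Irs2, the insulin receptor substrate that is itself repressed by insulin, was at 32.9, 26.1, 26.3 and 25.3 RPM in control and at 16.7, 10.1, 20.7 and 19.6 in anti-Ly6G pools. No pool overlapped, and anti-Ly6G 2 was the lowest. Its log2 fold change was -0.74 ± 0.22 (SE, limma adjusted p = 0.0227), from 27.6 ± 3.54 to 16.8 ± 4.74 RPM. The call was lost without control 1 (-0.66, adjusted p = 0.0612) and without anti-Ly6G 2 (-0.53, adjusted p = 0.0622), and the value was -1.38 with the covariate (adjusted p = 0.0276), all by limma.

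Upstream in the pathway, Pck1 and Pcx showed overlapping groups. Pck1 was at 4255, 3260, 2738 and 2733 RPM in control and 2267, 2342, 2845 and 3371 in anti-Ly6G, a log2 difference of -0.26 (95% interval -0.59 to 0.07, limma adjusted p = 0.220). Pcx was at 763, 783, 691 and 737 RPM in control and 526, 534, 690 and 770 in anti-Ly6G, a difference of -0.26 (-0.49 to -0.02, adjusted p = 0.0912, past the threshold at -0.36 without anti-Ly6G 4). For both enzymes anti-Ly6G pools 1 and 2 were below all controls, while pool 4 was not. The glycolytic gene Pklr was at 57.4, 87.0, 65.6 and 77.4 RPM in control and 41.98, 60.3, 62.6 and 72.7 in anti-Ly6G, with a difference of -0.28 (-0.62 to 0.06, limma adjusted p = 0.196).

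Igfbp1, Foxo1 and Irs1 did not pass the test in this comparison. Igfbp1 control pools spread from 161 to 417 RPM and anti-Ly6G pools from 200 to 312, with means of 267 ± 120 and 264 ± 46.6 (log2 difference 0.07, 95% interval -0.62 to 0.76, limma adjusted p = 0.882). With the covariate the Igfbp1 difference turned to -1.04 (limma adjusted p = 0.145). Foxo1 was at 23.2 to 36.2 RPM in control and 18.0 to 28.6 in anti-Ly6G (-0.27, -0.64 to 0.11, limma adjusted p = 0.259, turning to 0.05 with the covariate). Irs1, the other insulin receptor substrate, was at 11.2 to 14.5 and 9.62 to 14.2 RPM (-0.04, -0.42 to 0.35, limma adjusted p = 0.889, or -0.74 and past the threshold at 0.0491 with the covariate). Intervals this wide leave room for changes of either sign in all of Igfbp1, Foxo1 and Irs1.

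In KO against control, 0 of the 9 genes passed with limma, edgeR or DESeq2, against 1.12% of all genes with limma (0.585% higher and 0.534% lower). At an unadjusted p under 0.05 limma gave 3 of 9 (Fbp1, Pklr and Igfbp1), against 18.9% of all genes. Fbp1 was at 920, 763, 800 and 743 RPM in KO, all below the lowest control pool of 978. Its log2 difference was -0.38 ± 0.12 (SE, 95% interval -0.63 to -0.12, limma adjusted p = 0.121), and it passed at 0.0491 without anti-Ly6G 3 with the same difference. Pcx was at 689, 674, 683 and 686 RPM in KO, also below all controls but by only -0.12 (-0.36 to 0.11, adjusted p = 0.589). Pools did not overlap in these 2 genes, both lower, against 12.4% of all genes (5.73% higher and 6.62% lower). Pklr was at 62.6, 52.7, 49.8 and 47.6 RPM in KO (-0.42, -0.76 to -0.08, limma adjusted p = 0.183), within the control range in pool 1 only.

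Pck1 and G6pc stayed within the range of the control pools in KO. Pck1 was at 3549, 3553, 3324 and 3350 RPM (log2 difference 0.11, 95% interval -0.22 to 0.44, limma adjusted p = 0.744). G6pc was at 366, 353, 425 and 400 RPM (-0.03, -0.45 to 0.38, limma adjusted p = 0.947), and its sign turned to 0.20 without control 1. Foxo1 was at 24.2, 29.7, 23.4 and 19.5 RPM (-0.22, -0.59 to 0.16, adjusted p = 0.527).

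Igfbp1, Irs1 and Irs2 differed between the KO pools with different mitochondria labels. Igfbp1 was at 301 and 286 RPM in KO 1 and 2 (C57) and at 681 and 590 in KO 3 and 4 (NZB), which were the highest of all 12 pools. The log2 difference of KO from control was 0.80 ± 0.32 (SE, 95% interval 0.11 to 1.49, limma adjusted p = 0.207) and 0.24 with KO 1 and 2 alone, which share the controls' label. Irs1 was at 10.9 and 10.3 RPM in KO 1 and 2, under every control pool, and at 18.3 and 16.8 in KO 3 and 4, above every control pool. Its difference from control was 0.11 with all pools (limma adjusted p = 0.781) and -0.24 with KO 1 and 2 alone. Irs2 was at 23.6 and 16.6 in KO 1 and 2 and at 28.0 and 34.3 RPM in KO 3 and 4 (-0.14 against control, limma adjusted p = 0.767, and -0.46 with KO 1 and 2 alone, 0.396).

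A limma fit with the KO pools split by label, added after these values were seen, called 0 of 11791 genes (0%), and 9.84% had an unadjusted p under 0.05. The log2 difference of NZB from C57 KO pools was 1.11 ± 0.35 (SE, unadjusted p = 0.00736, limma adjusted p = 0.293) for Igfbp1, 0.70 ± 0.17 (0.00135, adjusted 0.181) for Irs1 and 0.63 ± 0.27 (0.0376, adjusted 0.464) for Irs2. Some fasting-induced genes, chosen after their values were seen, had the same sign. Pdk4, which restrains pyruvate oxidation, averaged 133 RPM in KO 3 and 4 and 60.0 in KO 1 and 2 (1.14, limma adjusted p = 0.0785). Fgf21, a fasting hormone of the liver, averaged 45.2 and 24.2 (0.88, limma adjusted p = 0.136). Sik1, a kinase induced by cAMP, averaged 48.7 and 24.4 (0.97, limma adjusted p = 0.156). Of 25 fasting-induced genes and FOXO1 targets, 4 were higher in the NZB pools at an unadjusted p under 0.05 and 0 lower. The median of that list was 0.15. Others in it had the opposite sign, among them Pdk2 (-0.36), Per1 (-0.35) and Klf15 (-0.31). G6pc and Pck1 differed by 0.20 and -0.09 (limma adjusted p = 0.859 and 0.924). With 2 pools on each side, label and pool cannot be told apart.

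**Figure D2:**
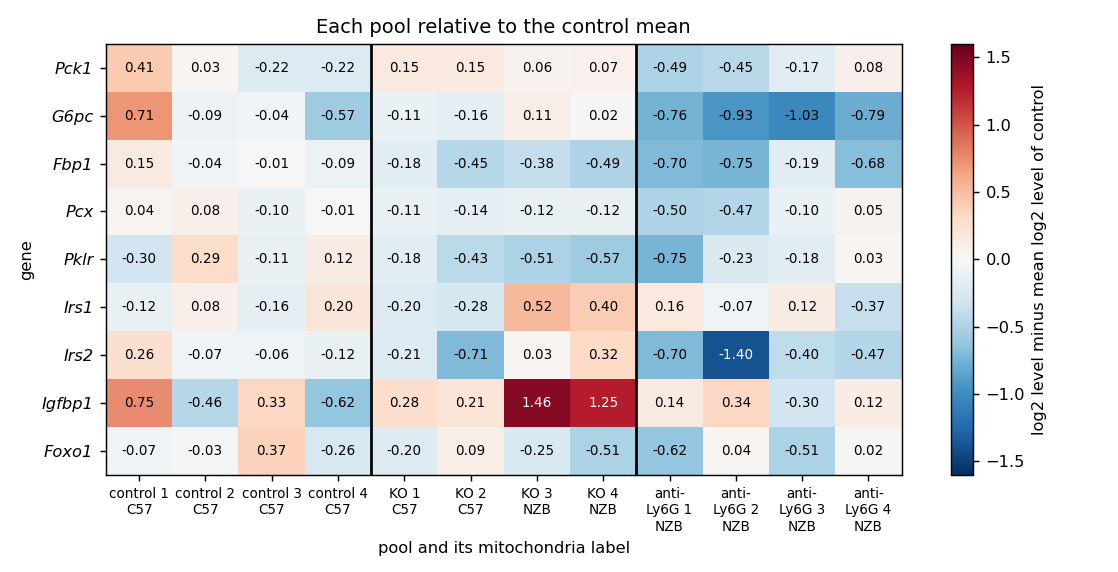
Log2 level of each gene in each pool minus the mean log2 level of the control pools, in red where higher and blue where lower, with the mitochondria label under each pool. Igfbp1 is at 1.46 and 1.25 in KO 3 and 4, and G6pc is at -0.76 to -1.03 in the anti-Ly6G pools.

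The control pools also differed among themselves. Control 1 was the highest control pool for Pck1, G6pc, Fbp1, Irs2 and Igfbp1 and the lowest for Pklr. Igfbp1 was at 417 and 311 RPM in controls 1 and 3 and at 180 and 161 in controls 2 and 4. Scd1, the insulin-induced stearoyl-CoA desaturase, was at 302 and 301 RPM in controls 1 and 3 and at 916 and 926 in controls 2 and 4, opposite to Igfbp1. Tat, a fasting-induced aminotransferase, was at 1892 and 1663 in controls 1 and 3 and 875 and 930 in controls 2 and 4. Scd1 and Tat were picked for this pattern, so no test was made. Pck1 and G6pc did not split the controls this way, at 3260 and 370 RPM in control 2 and 2738 and 384 in control 3.

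Between KO and anti-Ly6G, G6pc was the 1 of 9 genes called, higher in KO, against 26.8% of all genes called. At an unadjusted p under 0.05 limma gave 4 of 9 (Pck1, G6pc, Irs2 and Igfbp1), against 39.6% of all genes. All KO pools (353 to 425 RPM) lay above all anti-Ly6G pools (192 to 233), the only one of the 9 without overlap, against 27.3% of all genes. The log2 difference was 0.84 ± 0.19 (SE, limma adjusted p = 0.00603), and it passed in every other fit run, including that of KO 3 and 4 alone, which share the NZB label. With KO 3 and 4 alone, Igfbp1 (1.28, adjusted p = 0.0195), Irs2 (0.91, 0.0211) and Irs1 (0.50, 0.0469) were also higher in KO by limma, which with all pools stood at 0.73 (0.109), 0.60 (0.0613) and 0.15 (0.571). Pck1 was at 0.37 (95% interval 0.04 to 0.70, adjusted p = 0.0921) and passed without control 1 (0.37, 0.0498) or anti-Ly6G 4 (0.48, 0.0328). Fbp1 was at 0.20 (adjusted p = 0.223), and at 0.33 (0.0160) without anti-Ly6G 3. This comparison shares its anti-Ly6G pools with that against control. Of the 166 further genes described next, 29 were higher and 20 lower in KO than in anti-Ly6G (29.5%).

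Of 166 further genes of glucose and insulin metabolism, taken from 9 lists, 21 rose and 44 fell in anti-Ly6G against control (39.2%, against 30.4% of all genes, 15.1% higher and 15.3% lower). Their median log2 fold change was -0.05, against 0.00 over all genes. With the covariate 6 rose and 17 fell, in a fit that called 973 of 11791 genes. The count of 65 was 43 without control 1, 43 without control 2 and 42 without anti-Ly6G 2. Over all genes the 3580 calls became 3072, 2791 and 2800 in those fits.

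Among 19 other gluconeogenic enzymes and transporters, 4 fell, 2 rose and 13 did not pass (median -0.09). Pck2, the mitochondrial carboxykinase, fell from 10.9 ± 2.81 to 5.10 ± 0.876 RPM (log2 -1.01, limma adjusted p = 0.000671). Got1, the cytosolic aspartate aminotransferase, fell (-0.85, limma adjusted p = 0.00238) but was not called with the covariate (-0.92, 0.0732). Gk, glycerol kinase, which feeds glycerol into the pathway, rose from 257 ± 21 to 417 ± 42.7 RPM (0.70, limma adjusted p = 0.00284, but 0.11 and not called with the covariate). Slc37a4, the transporter that brings glucose-6-phosphate to the G6PC active site, averaged 173 ± 24.2 RPM over control pools, 112 ± 9.78 over KO pools and 135 ± 24.6 over anti-Ly6G pools. It fell in KO (-0.62, limma adjusted p = 0.0345) and in anti-Ly6G (-0.36, 0.0398), and both calls were lost with the covariate. The KO call was also lost without any 1 of controls 1 to 3 or KO 1 to 4, and the other without control 1 or 3, KO 4 or anti-Ly6G 1, 2 or 3.

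Of 22 glycolytic genes, 7 fell, 2 rose and 13 did not pass (median -0.08). Pkm, the pyruvate kinase of most cells other than hepatocytes, fell from 56.9 ± 17.9 to 19.9 ± 2.07 RPM (-1.45), Eno1 from 510 ± 102 to 235 ± 46.2 (-1.11) and Gapdh from 224 ± 10.6 to 172 ± 6.36 (-0.38), with limma adjusted p from 0.000125 (Pkm) to 0.000756 (Gapdh). Only 62.0%, 70.6% and 71.0% of their 25-base words are unique among annotated genes, so their levels are uncertain. Macrophage markers moved with them: 8 of 14 fell and 0 rose, and their summed level was 584 to 1016 RPM in control and 362 to 589 in anti-Ly6G, with Csf1r at 85.2 ± 18.2 and 51.0 ± 12.1. Of 12 neutrophil markers 4 are in the table, of which 3 fell, with a summed level of 12.5 to 21.4 RPM in control and 6.31 to 10.8 in anti-Ly6G. Of the measured markers 6 of 10 fell for stellate cells, 3 of 9 for endothelium, 2 of 3 for bile duct and 3 of 3 for T, NK and B cells, and 1 of 3 erythroid markers rose. Their part in these results was not tested, and in whole liver fewer cells of a type and less RNA per cell cannot be told apart. The summed hepatocyte markers were at 121200 to 137600 RPM in control, 121700 to 163000 in anti-Ly6G and 110900 to 141100 in KO.

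Insulin signalling and its transcriptional partners moved in both directions. Of 31 signalling genes, 9 fell, 6 rose and 16 did not pass (median -0.01). Trib3, a pseudokinase that binds AKT, fell from 27.5 ± 5.43 to 14.2 ± 2.96 RPM (-0.93), Socs3, a cytokine-induced inhibitor of insulin signalling, fell from 22.8 ± 6.97 to 11.2 ± 2.71 (-0.97) and Inppl1, a lipid phosphatase that opposes PI3-kinase, rose from 29.0 ± 2.55 to 37.9 ± 3.01 (0.38), with limma adjusted p from 0.00131 to 0.00434. Of 26 glucagon, cAMP and glucocorticoid regulators, 7 fell, 5 rose and 14 did not pass (median -0.03). Crtc2, the CREB coactivator that drives gluconeogenic genes in fasting, fell from 48.7 ± 7.19 to 29.7 ± 4.74 RPM (-0.71, limma adjusted p = 0.000661), and Klf9 (-0.56) and the kinase Sik2 (-0.62) fell at adjusted p = 0.00365 and 0.00392. Of these 6 genes Sik2 alone kept its call with the covariate (-1.01). In that fit Crtc2 was at -0.68 (limma adjusted p = 0.0541), Socs3 at -0.92 (0.142), Trib3 at -0.67 (0.150), Inppl1 at 0.29 (0.214) and Klf9 at -0.30 (0.335).

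Fasting-induced genes and FOXO1 targets moved in both directions. Of 25, 9 fell, 2 rose and 14 did not pass, and the median was -0.33. Cited2, a transcriptional coregulator, fell from 13.7 ± 2.11 to 7.22 ± 0.0611 RPM (-0.87) and Igfbp2, a relative of Igfbp1, from 2422 ± 327 to 1586 ± 76.1 (-0.60), while Fgf21 rose from 18.8 ± 3.31 to 39.4 ± 5.26 (1.05), with limma adjusted p from 0.000101 (Cited2) to 0.00257 (Fgf21). Of 17 insulin- and glucose-induced lipogenic genes, 3 fell, 2 rose and 12 did not pass (median 0.16). Scd1 fell from 611 ± 358 to 58.4 ± 33.9 RPM (-3.34), while Me1, the malic enzyme that supplies NADPH, rose from 73.5 ± 6.86 to 142 ± 16.9 (0.94) and Nr1h3, the oxysterol receptor LXRα, from 69.4 ± 2.495 to 98.6 ± 2.64 (0.50), with limma adjusted p from 5.89e-05 (Nr1h3) to 0.000169 (Me1). Me1 has 60.0% unique 25-base words and is uncertain. With the covariate Fgf21 (0.18) and Me1 (0.49) no longer passed.

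Of 5 measured hexose transporters 3 fell and 0 rose (median -0.47): Slc2a1, the general glucose transporter, from 21.4 ± 2.33 to 11.4 ± 1.598 RPM (-0.88), Slc2a2, the main hepatocyte glucose transporter, from 189 ± 10.4 to 154 ± 15.9 (-0.30) and Slc2a8 from 19.2 ± 3.43 to 13.7 ± 2.39 (-0.47), with limma adjusted p from 0.000108 to 0.0176. With the covariate Slc2a1 kept its call (-0.72, limma adjusted p = 0.0338), while Slc2a2 (-0.16, 0.471) and Slc2a8 (-0.36, 0.342) did not. Of 9 genes of the growth factor axis, Igfbp2 and Igfbp7 (-0.29) fell and Ghr, the growth hormone receptor, rose (0.40), at limma adjusted p = 0.00194, 0.0339 and 0.0495. Of 19 glycogen genes, 3 fell, 1 rose and 15 did not pass: Stbd1, a glycogen-binding protein, rose from 62.7 ± 10.1 to 98.5 ± 10.8 RPM (0.66, adjusted p = 0.00146), and Gaa, lysosomal glucosidase (-0.36, 0.0272), and Phkg2, a phosphorylase kinase subunit (-0.22, 0.0380), fell by limma. Of the 26 genes named here for their lists in anti-Ly6G against control, 21 kept their call with each of 12 libraries left out, all but Gaa, Ghr, Igfbp7, Phkg2 and Slc2a8, and 12 kept it with the covariate.

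Called periportal markers moved in both directions, whereas called pericentral markers only rose. Of 10 periportal markers, Hal, which degrades histidine, fell from 971 ± 107 to 461 ± 37.2 RPM (-1.07, limma adjusted p = 2.45e-05), the glutaminase gene Gls2 fell (-0.53, 0.00318) and Cyp2f2 rose (0.37, 0.0254). Among the 10 pericentral markers, Lect2 (0.61, limma adjusted p = 0.00604) and Lgr5 (0.81, 0.0149) were among those that rose and 0 fell. With the covariate Gls2 was at -0.23 (limma adjusted p = 0.388) and Lgr5 at 0.94 (0.152), neither called. The call of Cyp2f2 was lost without control 2, control 3 or anti-Ly6G 4. The part of zonation in the falls of G6pc and Fbp1 was not tested.

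In KO against control the same 166 genes held 2 calls (1.21%, against 1.12% of all genes), both lower. With limma 38 of them (22.9%) had an unadjusted p under 0.05, against 18.9% of all genes. Besides Slc37a4, Ppargc1b, a coactivator of mitochondrial and lipogenic genes, fell from 9.53 ± 2.54 to 4.85 ± 0.219 RPM (-0.88, limma adjusted p = 0.0415). The call was lost without control 1, 2 or 3, any KO pool or anti-Ly6G 2, and with the covariate. In the 7 lists with 0 calls by limma the lowest adjusted p belonged to Igf1 (-0.29, adjusted p = 0.0522), Slc2a2 (-0.33, 0.0608), Fgf21 (0.81, 0.0728), Nr1h3 (0.21, 0.0842), Sos1 (-0.33, 0.116), Pfkl (0.32, 0.152) and Pgm1 (-0.23, 0.155). The stellate cell marker Tagln rose (0.60, limma adjusted p = 0.0276, with 36.5% unique 25-base words). Its call was lost with the covariate (0.63, limma adjusted p = 0.0588) and without control 2 or 3 or KO 2 or 3. In the same comparison 0 of 9 hepatocyte and 0 of 14 macrophage markers passed.

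**Figure D3:**
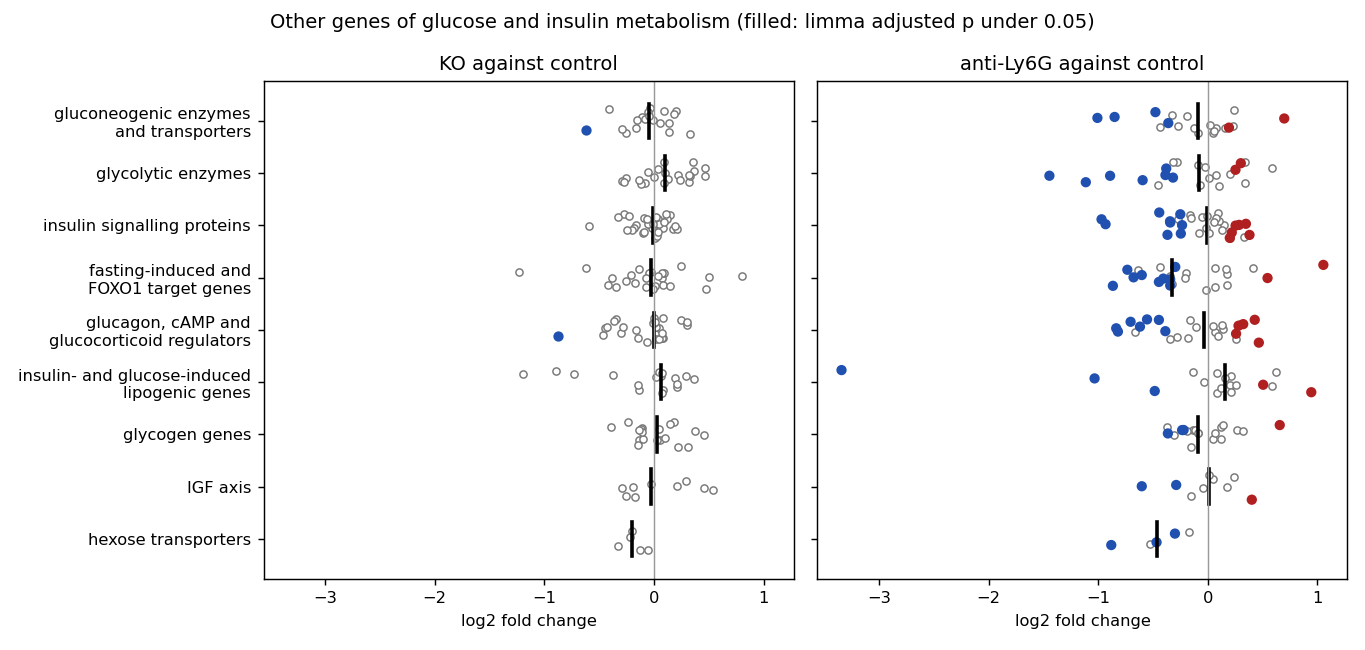
Log2 fold change of each measured gene of the 9 further lists (points, filled in blue or red where lower or higher at a limma adjusted p under 0.05) with the median of each list as a bar. Filled points number 2 in KO against control and lie on both sides of 0 in anti-Ly6G against control.

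The genes whose levels over the 12 libraries were most like those of the 3 called genes were found by Pearson correlation of log2 levels, as a description with no test. They were Sall2 and Eid2b for G6pc (r = 0.933 for each), Prox1os and Prr14 for Fbp1 (0.953 and 0.942) and Cluh and Tbl3 for Irs2 (0.950 and 0.934). The 12 points share their groups and libraries.

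On GRCm38 with the GENCODE vM21 annotation, Irs1 spans bases 82233101 to 82291416 of chromosome 1, Pck1 173153048 to 173159273 of chromosome 2, Foxo1 52268336 to 52353221 and Pklr 89136142 to 89146784 of chromosome 3, and Irs2 10984681 to 11008458 of chromosome 8. Igfbp1 spans 7197782 to 7202546 and G6pc 101367561 to 101377903 of chromosome 11, Fbp1 62864753 to 62888282 of chromosome 13 and Pcx 4510472 to 4621752 of chromosome 19. For most of the 9 genes reads could be placed uniquely, with at least 97.4% unique 25-base words in Pck1, G6pc, Fbp1, Pcx, Irs2 and Igfbp1, and 91.4% in Foxo1. Irs1 had 68.9%, since an exon of Gm9747 overlaps it on the opposite strand, and Gm9747 ranged over 6.61 to 9.38 RPM among controls, 11.2 to 19.6 among KO pools and 10.2 to 15.9 among anti-Ly6G pools. Whether strand was used in counting is not given in the sources used here, so the values of Irs1 and Gm9747 are uncertain. Pklr had 78.2%, sharing words with Hcn3 on the opposite strand, which was at 0.695 to 3.23 RPM over the 12 pools.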

How the data were processed

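For 12 liver libraries the table deposited by the authors gives 1 normalized signal for each gene. Per the submitters' processing notes the tools were Bowtie2 2.0.6, RSEM 1.2.3 and cutadapt 1.2.1, with edgeR and the build GRCm38 also listed. Which tool did which step is not stated there. Each column sums to 0.922 to 1.06 M, and 100% of values are whole multiples, within 0.01, of 1 read's value, so reads were recovered by division (13.1 to 22.3 M per library, 3 reads being a signal of 0.125 to 0.242). A stricter test of low values passed in 4 of 12 columns. Coordinates and lengths came from GENCODE vM21, which held 11665 of 11791 IDs.

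Tests were limma-trend fits (limma 3.58.1, R 4.3.3) on log2(signal + 0.5) over all genes and libraries, with group as the only term and Benjamini-Hochberg adjustment at 0.05. A minimum mean of 1 in at least 1 group removed 0 genes. Alternatives included edgeR 4.0.16 and DESeq2 1.42.0 on the recovered reads. On simulated reads with 200 genes changed 2-fold among 11791, the limma fit recovered 97.0% in KO against control, 97.5% in anti-Ly6G against control and 98.5% in KO against anti-Ly6G. It also called 13, 7 and 15 unchanged genes. The simulation gave every gene the same spread between pools and no effect of the label. Its shares therefore need not hold for genes of wider spread, such as Igfbp1 and G6pc, or for smaller changes.

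The 9 genes and all lists were chosen with earlier results of these data known. Named from each list were up to 3 called genes of lowest p, or the 1 of lowest p, in the comparisons against control. In KO against anti-Ly6G the list genes were only counted. Some called markers were named, and most were only counted. A called marker is not reported here.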

Additional observations from a re-analysis of the deposited data

Results flagged for a closer look

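In 27 sets of 4 pools (9 genes in 3 groups), 2 pools stood apart from the rest of their group, where chance alone would mark about 1 in 20 sets. Fbp1 was at 917 RPM in anti-Ly6G 3, far above the 621 to 651 of the other anti-Ly6G pools. Irs2 was at 32.9 RPM in control 1, above the 25.3 to 26.3 of the other controls.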

How the results depend on the processing

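Of 612 values of the 9 genes under alternatives, 572 kept their direction and side of the threshold, 16 passed it newly, 4 lost it and 20 turned sign, and the cause was not tested. In some alternatives the log2 value could not change. Among them were the fit without the filter, the replicate block and fits without a pool of the group not compared. In KO against control, Irs1 was -0.24 with the mitochondria label as a covariate and with only pools sharing a label, and -0.0268 without KO 3, within a range of -0.0268 to 0.2395 with 1 library left out. G6pc was 0.20 without control 1 and 0.0083 without KO 2, within -0.2248 to 0.20, and Irs2 0.0434 without KO 2, within -0.2978 to 0.0434. In anti-Ly6G against control, Igfbp1 was -0.0185 with edgeR, -0.021 with DESeq2, -1.04 with the covariate, and -0.0807, -0.13 and -0.0142 without control 2, control 4 and anti-Ly6G 2, within -0.13 to 0.3233. Foxo1 was 0.0523 with the covariate, and Irs1 0.0277 without control 4 and 0.0732 without anti-Ly6G 4. In KO against anti-Ly6G, Foxo1 was -0.11 with the covariate and with pools sharing a label, and -0.0514, -0.0667 and -0.029 without KO 2, anti-Ly6G 1 and anti-Ly6G 3, within -0.0667 to 0.1521.

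Over all genes, the 132 calls in KO against control became 577 with DESeq2, 79 with the covariate (25 higher, 54 lower), 58 with pools sharing a label (13 higher, 45 lower) and 3 (without control 2) to 319 (without control 4) with 1 library left out. The 3580 calls in anti-Ly6G against control became 973 with the covariate and 2791 to 3646 with 1 library left out. The 3157 in KO against anti-Ly6G became 2041 with pools sharing a label and 2367 to 3266. Of the 9 genes, 0 to 1, 2 to 4 and 1 to 3 were called in the 3 comparisons with 1 library left out. In KO against anti-Ly6G 2 of the 9 were called with DESeq2, against 3434 of all 11791 genes. In the same comparison 4 were called with the covariate, against 2374 of all genes, and 4 with pools sharing a label, against 2041. No fit of pools sharing a label exists for anti-Ly6G against control. The filter on low values removed 0 genes.

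Replicate numbers gave no clear pairing of the pools. Same-number correlations ran from -0.209 to 0.172, with 4 of 12 over 0.1. Other-number correlations ran from -0.189 to 0.241, with 6 of 36 over 0.1. Of 12 pools, 4 correlated best with their own number. Between control and KO the same-number values were 0.129, 0.081, 0.119 and 0.011, and the other-number values ran from -0.189 to 0.139. With the replicate block 20 genes were called in KO against control, against 132 without it. In KO against anti-Ly6G it called 2984 of 11791 genes, 2 of the 9 genes among them (G6pc and Irs2). Both calls of Slc37a4 and the KO calls of Ppargc1b and Tagln were lost.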
